A study of Mus musculus with 9 samples.

Results

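The proteasome genes were taken from the liver RNA-seq table by their symbols, Psm followed by a letter from a to g and a number. This rule matched 49 of the 24008 genes listed. Of these, 48 encode parts of the proteasome or proteins that assemble or regulate it, and Psmc3ip, which encodes a factor of meiotic recombination, matched by name only and was left out of the counts that follow. The 48 genes were divided by role into 7 subunits of the alpha ring, 7 constitutive subunits of the beta ring, 3 immunoproteasome subunits, Psma8, which replaces an alpha subunit in the testis, 6 ATPases and 11 other subunits of the 19S cap, 6 genes of activators and an inhibitor, and 7 assembly chaperones.

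The proteasome is the protease that degrades ubiquitin-tagged proteins. Its barrel-shaped 20S core is built from outer alpha rings, which gate the entrance, and inner beta rings, which hold the proteolytic sites, and the 19S cap binds, unfolds and feeds in the tagged substrate. In immune cells and under interferon, Psmb8, Psmb9 and Psmb10 take the places of the catalytic subunits Psmb5, Psmb6 and Psmb7, which gives the immunoproteasome and changes the peptides made for antigen presentation. The core and cap are needed in every cell and turn over damaged and regulatory proteins in hepatocytes.

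The study asked how skeletal muscle acts on the liver in nonalcoholic steatohepatitis (NASH), a fatty liver disease with inflammation and fibrosis. Livers came from Flox mice (labelled WT), which kept the transcription factor IRF4 in muscle, from F4MKO mice, in which Irf4 was deleted in skeletal muscle, and from F4MKO + FSTL1 mice, the same knockout with the secreted muscle protein FSTL1 overexpressed. There were 3 mice per group, with 1 library per mouse. All 3 groups were male C57BL/6 mice, 8 weeks old at the start, on a diet labelled as high in fat and carbohydrate. The virus was injected into the gastrocnemius after 24 weeks of diet by one part of the methods and 12 weeks by another, and livers were taken 4 weeks later. FSTL1 was driven by the muscle creatine kinase promoter, and Flox and F4MKO mice received a GFP virus by the paper, although the labels name none. The deletion was made with a Cre line named Myl-Cre, after a myosin light chain gene of muscle, so the liver was not its target.

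The libraries held 20656976 to 24322984 counted reads each, and 14379 genes had enough counts to be tested. Levels are given as CPM, counts scaled to a common library size, after TMM normalization, which divides each library by a factor (0.927 to 1.17) that equalises most genes. The 7 hepatocyte marker genes held 69110 to 99900 CPM in each library, and the muscle markers Ckm, Myh4 and Acta1 held at most 0.0446 CPM. A gene was called differentially expressed at an adjusted p under 0.05 (edgeR's quasi-likelihood test, Benjamini-Hochberg over all genes tested) and a fold change above 1.5. Since whole liver was sequenced, fewer cells of a type and less RNA per cell cannot be told apart.

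Of the 48 proteasome genes, 46 were tested. Psme2b, a near-identical copy of Psme2, had 1 read in all 9 libraries together. Psmb6, the constitutive caspase-like subunit, had counts of 1, 0 and 1 in Flox, 4, 0 and 0 in F4MKO and 1, 1 and 3 in F4MKO + FSTL1 libraries. The other beta subunits that every core particle needs were counted at 55.4 CPM or more in each library. In the GENCODE annotation no exon of another gene overlaps Psmb6 (chr11:70525367-70527858, plus strand, GRCm38) and no other gene carries a near-identical transcript. Its values were therefore not read as a liver level, and the ratio of Psmb9 to Psmb6 was not computed.

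Per kilobase of transcript, the constitutive core and the 19S cap formed the upper range. The median level of the constitutive core genes (13 tested) was 81.9 CPM per kb over the 9 libraries, with Psmb3 the highest of all at 127 CPM per kb. The 19S genes had a median of 51.4 CPM per kb and ran from 28.7 for Psmd14, the deubiquitinase of the cap, to 110 CPM per kb for Psmd8. The assembly chaperones, which build the particle and then leave it, ran lower, from 2.65 CPM per kb for Psmd10 to 21.7 CPM per kb for Psmd9. Among the immunoproteasome genes, Psmb10 stood at 22.2, Psmb9 at 3.01 and Psmb8 at 2.58 CPM per kb. The activator subunits Psme1 and Psme2, which form the interferon-inducible PA28 cap, stood at 82.8 and 60.9 CPM per kb, and Psma8 at 0.55 CPM per kb was the lowest of the tested genes.

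**Figure D1:**
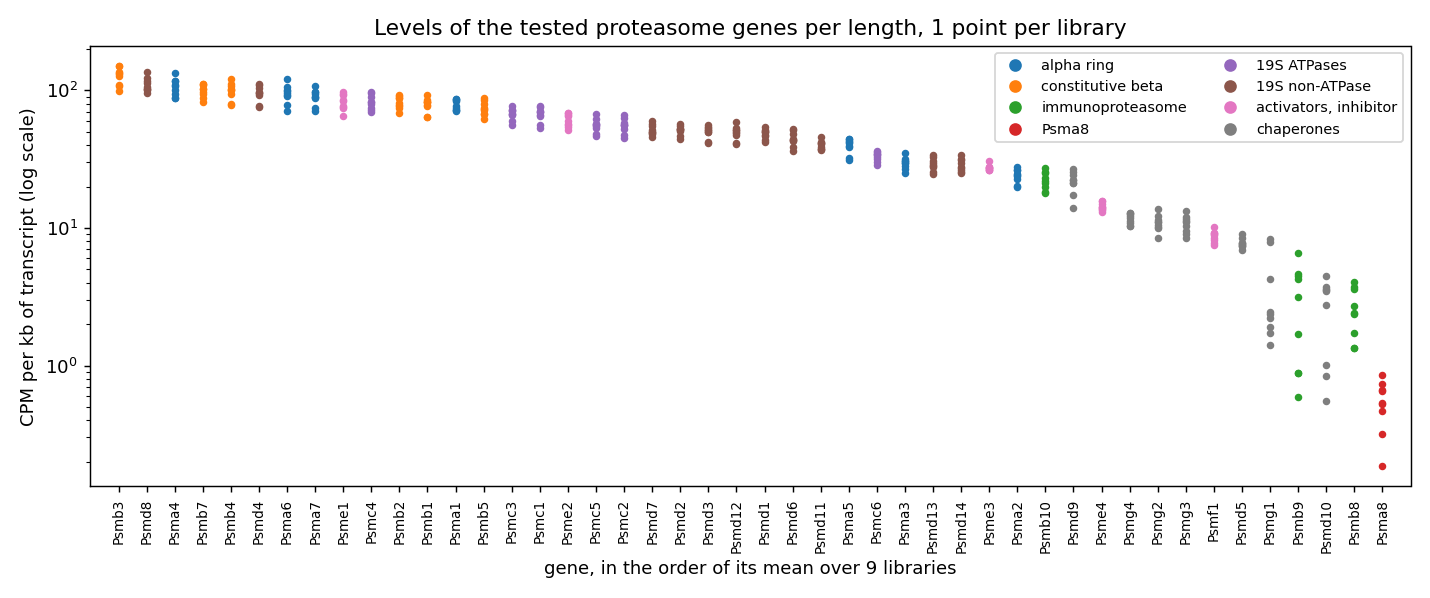
Level of each of the 46 tested proteasome genes in CPM per kb of transcript on a log axis, with 1 point per library and genes ordered by their mean over 9 libraries. Genes of the core and 19S cap fill the left, from Psmb3 at 127 CPM per kb, while Psmb9, Psmd10, Psmb8 and Psmg1 spread widely between libraries.

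In F4MKO compared with Flox livers, 0 of the 46 tested proteasome genes were called, where 0.271% of all genes tested were. At an unadjusted p under 0.05 there were 6 of 46, against 16.9% of all genes, and DESeq2 also called 0. Small differences in one direction were nevertheless frequent, as 40 of the 46 genes had a log2 fold change below 0, against 50.6% of all genes. Their median was -0.15 on the log2 scale, and that of all genes tested was -0.003.

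Between F4MKO + FSTL1 and F4MKO livers, 1 of the 46 genes was called, the immunoproteasome gene Psmb9, where 14.4% of all genes were called and 3.21% were called higher. At an adjusted p under 0.05 without a fold threshold, Psmb9, Psmd9 and Psmg3 were higher and none was lower, 3 of 46 against 20.9% of all genes in either direction and 7.73% higher. At an unadjusted p under 0.05 there were 12 of 46, against 35.3%. A log2 fold change above 0 was found for 37 of the 46, against 51.4% of all genes, with a median of 0.19 for the 46 and 0.01 for all genes. F4MKO + FSTL1 compared with Flox livers gave 0 called genes of 46, where 0.00695% of all genes were called. There the edgeR test found 0 of 46 at an unadjusted p under 0.05, against 13.4% of all genes, DESeq2 called 0, and the 46 genes had a median of 0.03. The first 2 comparisons share the F4MKO libraries, so their opposite signs are not independent of each other.

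**Figure D2:**
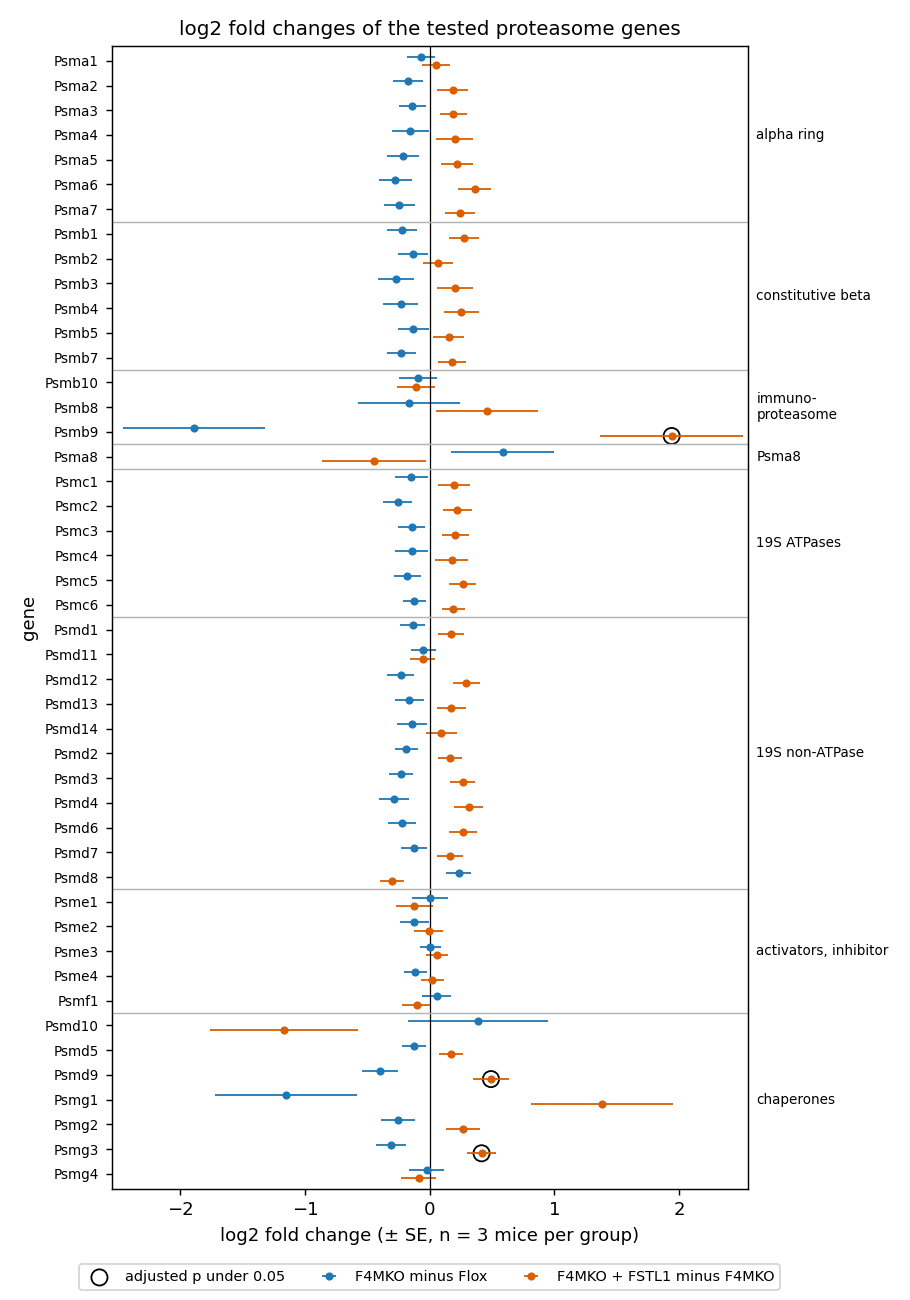
Log2 fold change of each tested proteasome gene with its standard error from the fit of all 9 libraries. F4MKO minus Flox is in blue and F4MKO + FSTL1 minus F4MKO in orange, with 3 mice per group. Most subunits of the core and 19S cap lie slightly left of 0 in blue and slightly right of it in orange, Psmd8 lies the other way, and the 3 circled genes, Psmb9, Psmd9 and Psmg3, had an adjusted p under 0.05.

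The 30 tested subunits of the constitutive core and the 19S cap differed little from each other. In F4MKO compared with Flox livers, 29 of 30 had a log2 fold change below 0, from -0.28 for the ubiquitin receptor Psmd4 upwards, and in F4MKO + FSTL1 compared with F4MKO 28 of 30 were above 0, up to 0.36 for the alpha subunit Psma6. None passed an adjusted p of 0.05 in either comparison with edgeR's test of all 9 libraries, TMM and group means alone. With the replicate number added as a block, Psmd12, Psma6 and Psmd8 passed in the second comparison, each with a fold below 1.5. In the second comparison, DESeq2 placed Psmd12 (adjusted p = 0.0486), Psmd3 (0.0446) and Psmd8 (0.0278) under 0.05, each with a fold below 1.5. The median level of these 30 genes, as a log2 difference from the Flox mean, was 0.09, -0.05 and -0.04 in the Flox libraries. In F4MKO mice it was -0.30, -0.28 and 0.01, and in F4MKO + FSTL1 mice -0.10, -0.01 and 0.15. After TMM, F4MKO replicate 3 thus lay among the Flox libraries and F4MKO replicates 1 and 2 below all others. The low place of F4MKO replicate 1 came with the highest TMM factor, 1.17. As a share of counted reads, its proteasome genes held 0.350%, within the Flox range of 0.343% to 0.369%, and the lowest libraries were F4MKO + FSTL1 replicate 1 (0.311%) and F4MKO replicate 2 (0.313%).

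The number of genes that passed depended on that library. Without F4MKO replicate 3, the comparison of F4MKO + FSTL1 with F4MKO livers had 12 proteasome genes of 46 at an adjusted p under 0.05, all higher, where 20.9% of all genes passed and 8.44% passed higher. The median of the 46 was then 0.29 instead of 0.19. Without F4MKO replicate 1 or replicate 2, 0 passed, where 11.1% and 15.9% of all genes did, and the medians were 0.12 and 0.15. Without F4MKO + FSTL1 replicate 2, 0 passed as well, against 10.6% of all genes. Replicate 3 was also the highest of the F4MKO + FSTL1 libraries for the 30 genes, and without it the median of the 46 was 0.13. In F4MKO compared with Flox livers the median ranged from -0.27 without F4MKO replicate 3 to -0.11 without F4MKO replicate 1. There 0 proteasome genes were called in each of the 9 fits that left out a library. These fits called only 0 to 100 of all genes tested, so few calls were to be had among 46 genes.

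The distance of the proteasome genes from 0 depended on the scaling, which moved all genes by about the same amount. In F4MKO + FSTL1 compared with F4MKO the sign of their median did as well. When libraries were scaled by their totals alone, the median of all genes tested itself shifted to 0.11 in F4MKO compared with Flox and to -0.18 in F4MKO + FSTL1 compared with F4MKO. The median of the 46 proteasome genes was then -0.04 and -0.0047. Relative to the median of all genes, the proteasome genes differed by -0.15 and 0.18 in both scalings. Against that median, 29 of the 30 core and cap genes lay below in the first comparison and 28 above in the second, again in both scalings. With library totals alone, 27 of 30 were below 0 in the first comparison and 15 of 30 above 0 in the second. As a share of all counted reads, the 48 genes held 0.355% ± 0.0129 in Flox, 0.346% ± 0.0316 in F4MKO and 0.337% ± 0.0258 in F4MKO + FSTL1 libraries (SD, n = 3), and these ranges overlapped.

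**Figure D3:**
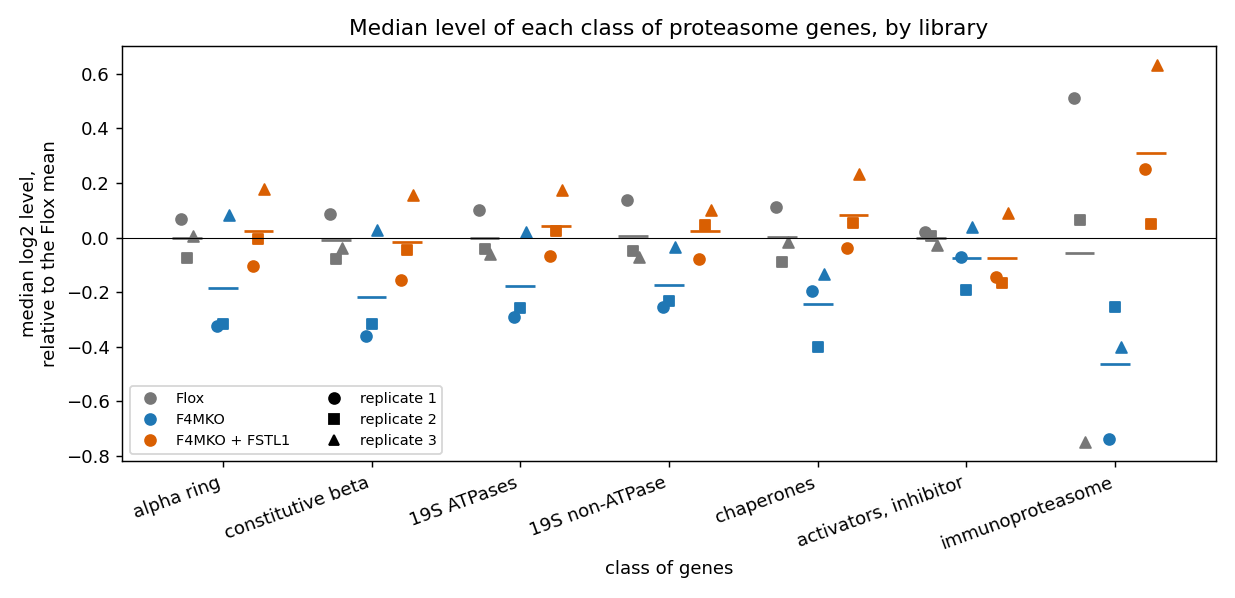
Median level of each class of proteasome genes in each library, as a log2 difference from the mean of the Flox libraries, with lines at the group means. In the core and 19S classes F4MKO replicates 1 and 2 lie below the other libraries and F4MKO replicate 3 (blue triangle) lies among them, while the immunoproteasome class spreads from -0.75 to 0.63.

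In the alpha ring, which forms the gate of the core, all 7 genes had log2 fold changes below 0 in F4MKO compared with Flox (median -0.17) and above 0 in F4MKO + FSTL1 compared with F4MKO (median 0.20), with smallest adjusted p values of 0.331 and 0.0803 by edgeR's test. The latter was that of Psma6. Its levels were 110, 96.0 and 103 CPM in Flox, 73.6, 81.8 and 99.7 CPM in F4MKO and 95.2, 105 and 127 CPM in F4MKO + FSTL1 libraries. F4MKO replicate 3 overlapped both other groups. Psma1 had the smallest changes of the ring, with log2 fold changes of -0.07 and 0.05.

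In the constitutive beta ring, the 6 tested genes were likewise below 0 and then above 0, with medians of -0.23 and 0.19. Psmb5, the chymotrypsin-like site and the target of the drug bortezomib, had 78.7, 60.8 and 65.9 CPM in Flox, 55.4, 60.6 and 71.6 CPM in F4MKO and 66.7, 64.7 and 77.1 CPM in F4MKO + FSTL1 libraries. The groups overlapped, and the log2 fold changes were -0.13 ± 0.13 and 0.15 ± 0.13 (SE). A near-identical copy, Gm3375, covers 88.4% of the Psmb5 transcript, so reads could be split between them. Stretches near-identical to other genes cover 98.2% of the transcript of Psmd2, 82.5% of Psme2, 82.0% of Psmc1 and 80.7% of Psmb3. They also cover 76.5% of Psma5, 66.9% of Psma4, 52.7% of Psmd11 and 27.0% of Psma3. For Psmb7 the share was 35.1%, all of it with Nek6. Exons of Nek6 on the opposite strand overlap 11.8% of the exon bases of Psmb7. Exons of Gm20496 on the opposite strand cover 14.7% of the exon bases of Psmb8. Psmb7, the trypsin-like site, had log2 fold changes of -0.23 ± 0.11 and 0.18 ± 0.11 (SE), with adjusted p values of 0.341 and 0.283 by edgeR's test.

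Among the 6 ATPases at the base of the cap, which unfold the substrate, all were below 0 in the first comparison and above 0 in the second, within a narrow range of 0.18 to 0.27. Psmc5 was the one of these whose F4MKO + FSTL1 libraries (74.9, 75.2 and 88.2 CPM) all lay above its F4MKO libraries (61.2, 63.5 and 73.5 CPM), with a log2 fold change of 0.27 and an adjusted p of 0.102 by edgeR's test. Groups without overlap were found for 9 of the 46 genes in this comparison, against 39% of all genes tested. In F4MKO compared with Flox there were 7 of 46, against 21.8%.

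Of the 11 other subunits of the cap, Psmd12, Psmd3 and Psmd2, scaffold subunits of the lid and base, lay lower in every F4MKO than in every Flox library. Their log2 fold changes there were -0.23, -0.23 and -0.19, and in the second comparison 0.29, 0.26 and 0.16, with adjusted p values of 0.0743, 0.0756 and 0.236 by edgeR's test. Psmd11, a lid subunit, had log2 fold changes of -0.05 and -0.06.

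Psmd8, a lid subunit, ran opposite to the rest of the cap. Its levels were 174, 158 and 158 CPM in Flox, 188, 179 and 208 CPM in F4MKO and 156, 148 and 162 CPM in F4MKO + FSTL1 libraries. Every F4MKO library lay above every library of both other groups. The log2 fold change was 0.23 ± 0.10 (SE) in F4MKO compared with Flox, with an adjusted p of 0.264, and -0.30 ± 0.10 in F4MKO + FSTL1 compared with F4MKO, with an adjusted p of 0.0502, both by edgeR's test. The adjusted p was under 0.05, with a fold below 1.5, with DESeq2 (0.0278), upper-quartile factors (0.0248), the replicate block (0.0434) and library totals alone (0.00446, log2 fold change -0.49). It was 0.0535 with DESeq2's size factors in edgeR, 0.110 without the filter on low counts and 0.0697 with only the 6 libraries compared, and over the 9 fits that left out a library it ran from 0.0546 to 0.168.

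The immunoproteasome genes did not share a pattern. Psmb9, which replaces the caspase-like site, had 5.71, 8.93 and 1.20 CPM in Flox (218 reads at most), 1.20, 0.80 and 2.28 CPM in F4MKO and 6.03, 4.23 and 6.22 CPM in F4MKO + FSTL1 libraries. All F4MKO + FSTL1 libraries lay above all F4MKO libraries, and Flox replicate 3 lay with the F4MKO libraries. It was higher in F4MKO + FSTL1 than in F4MKO livers by 1.94 ± 0.57 on the log2 scale (SE, adjusted p = 0.0346 by edgeR's test, 95% confidence interval 0.68 to 3.20). In F4MKO compared with Flox the log2 fold change was -1.89 ± 0.57, with an adjusted p of 0.146. The call was lost in the 5 fits that left out an F4MKO or F4MKO + FSTL1 library other than F4MKO replicate 3, with adjusted p values between 0.0616 (without F4MKO + FSTL1 replicate 2) and 0.118 (without F4MKO replicate 1). Those without F4MKO replicate 2, F4MKO + FSTL1 replicate 1 and F4MKO + FSTL1 replicate 3 gave 0.0997, 0.0745 and 0.072.

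Psmb8, the immunoproteasome form of the chymotrypsin-like site, had 6.02, 3.89 and 2.17 CPM in Flox, 2.19, 5.86 and 2.79 CPM in F4MKO and 4.44, 3.85 and 6.58 CPM in F4MKO + FSTL1 libraries. The 3 groups overlapped throughout, and the log2 fold changes were -0.16 ± 0.41 and 0.46 ± 0.41 (SE). Psmb10, the form of the trypsin-like site, had 30.1, 27.8 and 35.5 CPM in Flox, 28.5, 26.0 and 32.9 CPM in F4MKO and 24.1, 23.5 and 33.6 CPM in F4MKO + FSTL1 libraries. Its log2 fold changes were -0.09 ± 0.15 and -0.11 ± 0.15 (SE), and its groups overlapped as well. For a fold above 1.5 the 95% intervals leave room in Psmb8 (-0.43 to 1.35 in F4MKO + FSTL1 compared with F4MKO) and not in Psmb10 (-0.44 to 0.23).

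Set against their constitutive counterparts per length, Psmb8 stood at 1.82% to 5.34% of Psmb5 and Psmb10 at 17.4% to 27.8% of Psmb7 in the 9 libraries. The log2 ratio of Psmb8 to Psmb5 was -4.19 ± 0.63 in Flox, -4.23 ± 0.75 in F4MKO and -3.84 ± 0.27 in F4MKO + FSTL1 libraries (SD, n = 3). The log2 ratio of Psmb10 to Psmb7 was -1.99 ± 0.28, -1.85 ± 0.12 and -2.15 ± 0.20 in the same order. Exact two-sided permutation tests of the pairs of groups gave p values from 0.2 to 1 (0.72 to 1 after Benjamini-Hochberg adjustment over 6 tests). With 3 mice against 3 these tests cannot go below 0.1, so none could have passed 0.05. The difference of -0.30 in the Psmb10 to Psmb7 ratio between F4MKO + FSTL1 and F4MKO was larger than the SD of either group (p = 0.2 by the exact test). The groups overlapped, as F4MKO replicate 2 (-1.9626) lay below F4MKO + FSTL1 replicate 3 (-1.9455). A ratio within a library shows unequal change only and does not depend on the scaling of libraries.

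Beside the immunoproteasome in antigen presentation, 12 genes of peptide transport and MHC class I were listed. Of these, 0 were called in either comparison, where 0.271% and 14.4% of all genes were. H2-D1 alone passed an adjusted p under 0.05, lower in F4MKO + FSTL1 than in F4MKO livers (log2 fold change -0.42). Of all genes, 13.1% passed lower there. A list of 12 genes is too short to set such counts apart from these shares. Tap1, the peptide transporter that lies next to Psmb9 on chromosome 17, had 1.96, 1.27 and 0.62 CPM in Flox, 0.42, 0.59 and 1.16 CPM in F4MKO and 1.96, 0.62 and 0.52 CPM in F4MKO + FSTL1 libraries. These groups overlapped (log2 fold changes -0.83 ± 0.56 and 0.54 ± 0.58, SE). Exons of Tap1 on the opposite strand cover 5.79% of the exon bases of Psmb9 (chr17:34181987-34187764, minus strand), and whether counting used strand was not given in the sources used here. Of 15 tested genes of the interferon pathway, 4 were called in F4MKO + FSTL1 compared with F4MKO, all lower, where 14.4% of all genes were called and 11.2% were called lower. The 3 with the largest changes were the transcription factor Irf8 (log2 fold change -0.96) and the interferon-induced GTPases Gbp3 (-0.92) and Gbp2 (-0.87), and the other was the receptor chain Ifngr1 (-0.71).

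Markers of other cell types moved in this comparison too. Of 8 macrophage markers, 6 were called lower in F4MKO + FSTL1 than in F4MKO livers, against 11.2% of all genes, with summed levels of 408 to 643 CPM in Flox, 436 to 541 CPM in F4MKO and 240 to 380 CPM in F4MKO + FSTL1 libraries. Of 8 tested genes of the T and NK cell list 1 was called lower, Ptprc, which leukocytes in general express, macrophages included. No gene more particular to T or NK cells was called. The list summed to 21.0 to 23.0, 23.7 to 34.0 and 13.5 to 23.2 CPM in the same order, and of 4 B cell markers 0 were called. Immune cells carry the immunoproteasome, and between F4MKO and F4MKO + FSTL1 livers Psmb9 was higher in the group whose macrophage marker sums were lower. Of the 7 hepatocyte markers 1 was called, Serpina1a, higher by 0.68 on the log2 scale. Stellate cell (4 of 7), cholangiocyte (3 of 4) and cycling cell markers (4 of 4) were called lower, and endothelial markers (0 of 5) were not called. In F4MKO compared with Flox, the cholangiocyte marker Epcam was the one marker called, and it was higher. The part of cell composition in the proteasome values was not tested.

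The activators and the inhibitor lay close to 0 in both comparisons, with medians of 0.00 and -0.01. Psme1 had 95.3, 84.9 and 103 CPM in Flox, 93.5, 82.1 and 109 CPM in F4MKO and 72.6, 84.0 and 105 CPM in F4MKO + FSTL1 libraries. Psme2 had 62.6, 58.1 and 65.5 CPM, then 54.7, 52.5 and 63.7 CPM, then 49.9, 54.2 and 65.9 CPM. The groups of both genes overlapped, and their log2 fold changes in F4MKO + FSTL1 compared with F4MKO were -0.12 ± 0.15 and -0.01 ± 0.12 (SE). Psme3, the nuclear activator subunit, and Psme4, the PA200 activator, lay at 0.06 and 0.02, and Psmf1, the inhibitor PI31, at -0.10.

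**Figure D4:**
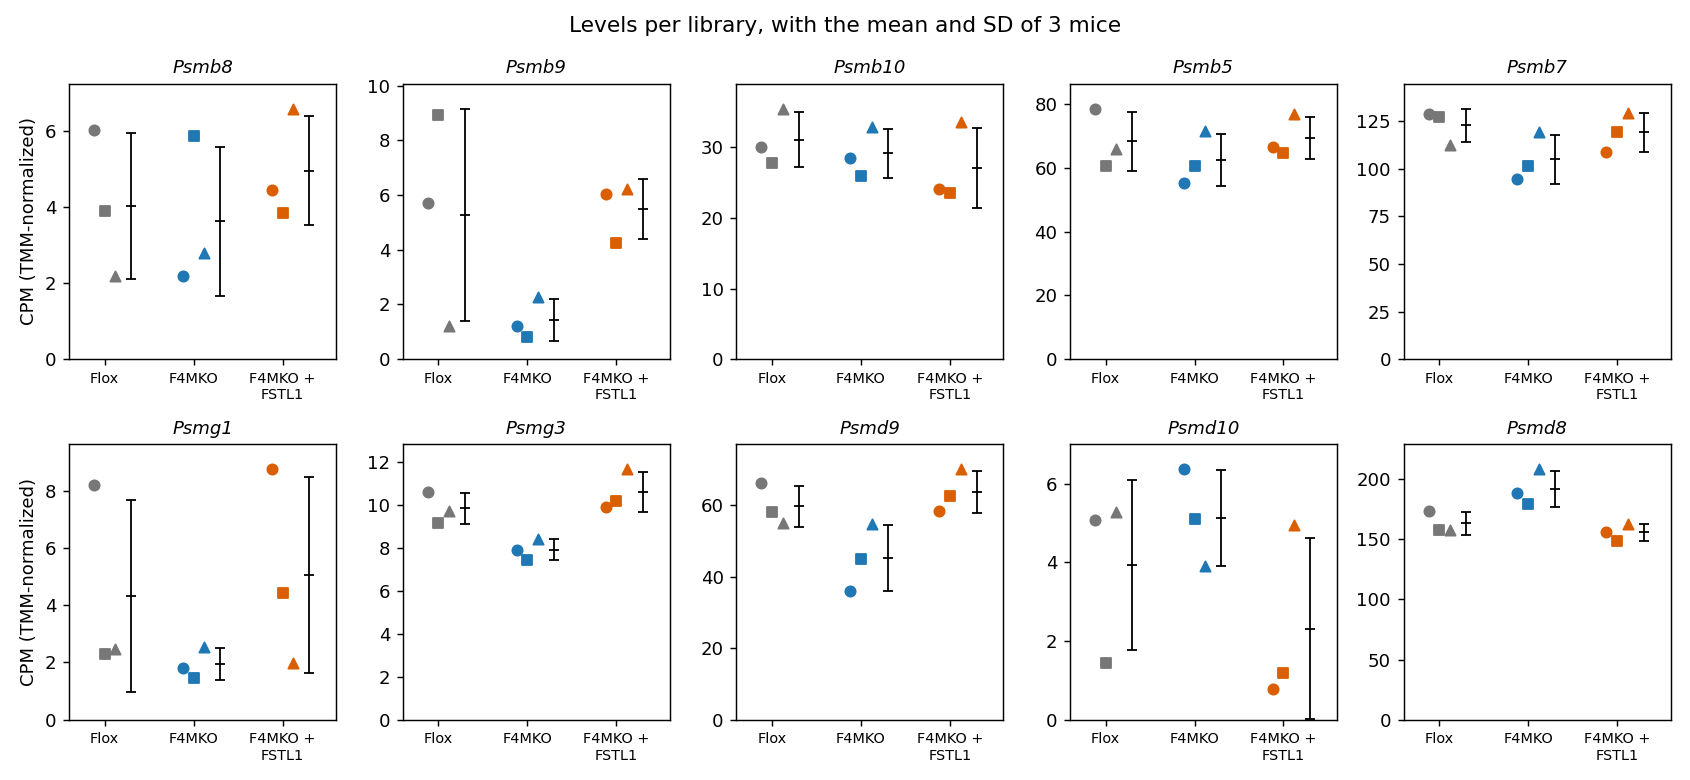
Levels of 10 proteasome genes in each library in CPM from 0, with the mean and SD of 3 mice beside the points (circle, square and triangle for replicates 1, 2 and 3). Psmb9, Psmg3 and Psmd9 are higher in every F4MKO + FSTL1 than in every F4MKO library, Psmd8 is highest in the F4MKO libraries, and the groups overlap for Psmb8, Psmb10, Psmb5, Psmb7, Psmg1 and Psmd10.

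The assembly chaperones held the other genes past an adjusted p of 0.05. Psmd9, which helps to build the ATPase ring, had 66.1, 58.0 and 55.0 CPM in Flox, 36.2, 45.1 and 54.6 CPM in F4MKO and 58.4, 62.6 and 70.0 CPM in F4MKO + FSTL1 libraries. It was higher in every F4MKO + FSTL1 than in every F4MKO library, by 0.49 ± 0.14 on the log2 scale (SE, adjusted p = 0.0311 by edgeR's test). Psmg3, which helps to build the alpha ring, had 10.6, 9.18 and 9.72 CPM in Flox, 7.92, 7.41 and 8.42 CPM in F4MKO and 9.91, 10.2 and 11.7 CPM in F4MKO + FSTL1 libraries. It was higher by 0.42 ± 0.12 (SE, adjusted p = 0.0306). Both lay lower in every F4MKO than in every Flox library, with log2 fold changes of -0.40 and -0.31 and adjusted p values of 0.197 and 0.225. Both changes fall below a fold of 1.5, and neither passed with library totals alone (adjusted p = 0.0919 for Psmd9 and 0.253 for Psmg3) or with upper-quartile factors (0.0550 and 0.0603). Psmg3 also missed it without the filter on low counts (0.0517) and with only the 6 libraries compared (0.0504). Both missed it without F4MKO replicate 1 (0.110 and 0.0825), F4MKO replicate 2 (0.0767 and 0.0984), F4MKO + FSTL1 replicate 2 (0.0774 and 0.0659) and F4MKO + FSTL1 replicate 3 (0.0888 and 0.0881). Exons of Gm26745 on the opposite strand cover 25.5% of the exon bases of Psmd9, and Gm26938 shares 9.68% of those of Psmg3.

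Psmg1 and Psmd10 varied widely between mice of a group. Psmg1, the partner of Psmg2 in alpha ring assembly, had 8.20, 2.29 and 2.49 CPM in Flox, 1.80, 1.47 and 2.56 CPM in F4MKO and 8.74, 4.42 and 1.99 CPM in F4MKO + FSTL1 libraries. Psmd10, the ATPase chaperone also known as the liver oncoprotein gankyrin, had 5.08, 1.43 and 5.28 CPM, then 6.37, 5.11 and 3.91 CPM, then 0.79, 1.20 and 4.96 CPM. Their log2 fold changes in F4MKO + FSTL1 compared with F4MKO were 1.38 ± 0.57 and -1.17 ± 0.59 (SE, adjusted p = 0.106 and 0.184 by edgeR's test). Without F4MKO + FSTL1 replicate 3 both passed, at 1.77 (adjusted p = 0.0405) and -2.35 (adjusted p = 0.0129), in opposite directions, and Psmg1 also passed without Flox replicate 1 (1.39, adjusted p = 0.0485). Within groups the SD of log2 CPM was above 0.5 for 5 of the 46 genes, Psma8, Psmb8, Psmb9, Psmd10 and Psmg1. It was between 0.0769 and 0.207 for the 30 core and cap genes, which lie at higher levels. Among genes within 0.5 log2 units of its level, 97.1% had a smaller SD than Psmb8. This share was 99.0% for Psmb9, 99.1% for Psmd10, 98.6% for Psmg1 and 90.2% for Psma8.

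Psmg2, Psmd5 and Psmg4 completed the chaperones with log2 fold changes of -0.26, -0.13 and -0.02 in F4MKO compared with Flox and 0.27, 0.17 and -0.09 in F4MKO + FSTL1 compared with F4MKO. Psma8 had log2 fold changes of 0.59 ± 0.42 and -0.45 ± 0.42 (SE) on levels of 0.31 to 1.45 CPM, with overlapping groups. Psmc3ip, the gene matched by name only, had log2 fold changes of 0.50 and 0.21.

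**Figure D5:**
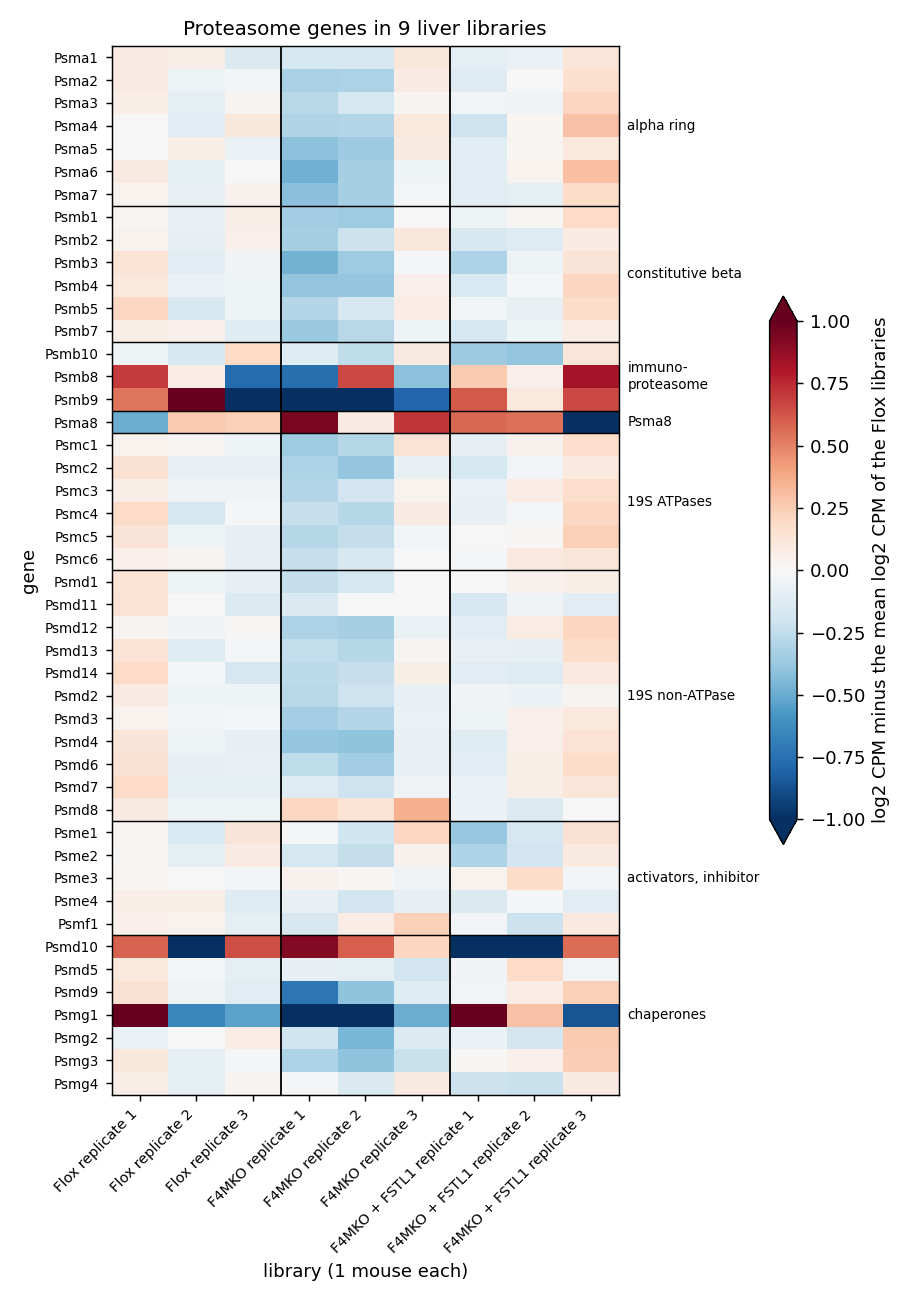
Log2 CPM of each tested proteasome gene in each library minus its mean in the Flox libraries, with colours that saturate at -1 and 1. Blue columns for F4MKO replicates 1 and 2 run through the core and 19S rows while F4MKO replicate 3 is near white, and Psmb8, Psmb9, Psma8, Psmd10 and Psmg1 differ strongly between libraries of a group.

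Among the partners of the proteasome that the symbol rule does not reach, Pomp, Adrm1 and Sem1 gave values of the same size as the core genes. Pomp, which matures the beta ring, had 123, 109 and 126 CPM in Flox, 90.8, 90.4 and 121 CPM in F4MKO and 128, 113 and 140 CPM in F4MKO + FSTL1 libraries. As in the core genes, F4MKO replicate 3 lay apart from the other F4MKO libraries. The log2 fold changes of Pomp were -0.25 and 0.33, those of the ubiquitin receptor Adrm1 -0.23 and 0.33 and those of the cap subunit Sem1 (listed as Shfm1) -0.27 and 0.28, with smallest adjusted p values of 0.0955, 0.0518 and 0.201 by edgeR's test. Of the 17 genes of this list, 0 were called in either comparison, where 0.271% and 14.4% of all genes were. The medians of the whole list, -0.03 and 0.05, were nearer 0 than those of the proteasome genes. Nfe2l1, the transcription factor that raises proteasome genes when the proteasome is impaired, had log2 fold changes of 0.02 and 0.07. Of 9 listed regulators of proteasome genes 0 were called, against the same shares of all genes. Foxo4 and Pttg1 passed an adjusted p under 0.05 in the second comparison (log2 fold changes 0.46 and 0.41). These were 2 of 9, against 20.9% of all genes. All 7 tested genes of ubiquitin and the unfoldase were below 0 and then above 0, with medians of -0.11 and 0.23. Of these 0 were called, against 0.271% and 14.4% of all genes.

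The promoters were searched for 4 motifs in the 250 bases before each RefSeq start (GRCm38.p6), on both strands. These were the interferon motifs GAS (TTCNNNGAA) and ISRE (GAAA, any 2 bases, GAAA), the antioxidant response element ARE (TGACNNNGC), which NRF1 and NRF2 bind, and the CCAAT box of NF-Y. Windows were found for 41 of the 49 matched genes, 44 windows in all. GAS was found in 4.55% of them, against 7.02% of all windows, ISRE in 6.82% against 2.98%, ARE in 11.4% against 10.2% and the CCAAT box in 31.8% against 33.8%. Psmb8 and Psmg1 held the GAS motif, and the 3 windows with ISRE were those of Psmb3, Psmd4 and Psmd9. The windows of Psmb8 and Psmb9 lie within annotated exons and are not shown. The exon-free parts of the windows are given for the 2 chaperones past an adjusted p of 0.05, for Psmd8, which ran opposite, and for the catalytic gene Psmb5, with motif letters in capitals. They lie at chr5:123227940-123228189 (plus strand) for Psmd9, chr5:139826895-139827144 (minus) for Psmg3, chr7:29180702-29180923 (minus) for Psmd8 and chr14:54618023-54618245 (minus) for Psmb5, and read 5′ to 3′ along the gene.
Psmd9: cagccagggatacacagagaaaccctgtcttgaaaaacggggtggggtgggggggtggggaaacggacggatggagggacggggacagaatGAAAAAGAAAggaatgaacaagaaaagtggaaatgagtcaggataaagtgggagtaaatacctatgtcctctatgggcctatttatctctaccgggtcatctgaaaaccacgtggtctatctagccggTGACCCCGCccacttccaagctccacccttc
Psmg3: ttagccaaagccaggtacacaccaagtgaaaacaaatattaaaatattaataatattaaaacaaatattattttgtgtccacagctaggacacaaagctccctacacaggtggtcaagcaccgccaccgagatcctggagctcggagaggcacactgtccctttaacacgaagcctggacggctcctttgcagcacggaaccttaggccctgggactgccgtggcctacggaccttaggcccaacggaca
Psmd8: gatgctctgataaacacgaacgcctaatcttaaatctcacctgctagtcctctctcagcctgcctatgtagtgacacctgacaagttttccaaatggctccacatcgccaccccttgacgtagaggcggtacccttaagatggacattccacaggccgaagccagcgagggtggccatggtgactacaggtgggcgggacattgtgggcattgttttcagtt
Psmb5: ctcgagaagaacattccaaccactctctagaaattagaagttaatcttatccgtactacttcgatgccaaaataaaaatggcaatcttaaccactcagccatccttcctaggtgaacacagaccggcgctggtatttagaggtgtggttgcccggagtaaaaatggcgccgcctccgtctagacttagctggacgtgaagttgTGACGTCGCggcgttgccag
The capitals mark an ISRE and, nearer the start, an ARE in Psmd9, and an ARE in Psmb5. In Psmg3 and Psmd8 none of the 4 motifs was found in these letters.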

How the data were processed

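RNA was sequenced from whole livers of 9 mice. Per the paper and the labels, the authors sequenced paired-end reads of 150 bases on BGIseq500, trimmed them with Trim Galore 0.6.7, mapped them to mm10 with HISAT2 2.2.1 and counted them on genes with featureCounts 2.0.1. They deposited raw counts, whole numbers without normalization. The annotation, strand use and treatment of multi-mapping reads were not given in the sources used here. Counts were fitted in R 4.3.3 with edgeR 4.0.16 (filterByExpr with a minimum count of 10 in 3 libraries and a minimum total of 15, TMM, 1 quasi-likelihood fit of all 9 libraries with group means; common biological CV 0.150). SDs given after ± are over the 3 mice of a group. SEs are those of a log2 fold change between 2 groups, from the fit of all 9 libraries. Fold changes are log2. For ratios, 0.5 was added to each count.

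Lengths and overlaps came from GENCODE vM21, with near-identical transcripts found by blastn 2.17.0 (identity of at least 95% over at least 150 bases). Genes were named by rule: the immunoproteasome genes, their counterparts, Psme1, Psme2, called genes and, per comparison, the 3 highest and 3 lowest fold changes. The rule from outside the symbol pattern took Pomp, Adrm1, Sem1, Nfe2l1, Tap1 and up to 3 called genes per list. All others named, such as Psmg3, Psmd12, Psma6, Foxo4, H2-D1 and Ifngr1, were chosen after their values were seen. Members and lists were chosen with earlier results of these data known. The alternatives were DESeq2 1.42.0, its size factors or upper-quartile factors in edgeR, no filter, only the 6 libraries compared, the replicate number as a block, no fold threshold, a prior count of 2 for ratios and each library left out. Library totals alone were added after seeing the data. The fit was tested on simulated data.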

Additional observations from a re-analysis of the deposited data

How the results depend on the processing

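F4MKO compared with Flox gave 0 proteasome genes with each alternative except no filter on low counts, which gave 1 (Psmb9). F4MKO + FSTL1 compared with F4MKO gave 1 (Psmb9) except with no filter (2, with Psmg1), without a fold-change threshold (3), and 0 to 2 with a library left out. F4MKO + FSTL1 compared with Flox gave 0 throughout. Counts over all genes moved more in F4MKO compared with Flox, from 39 to 338 with DESeq2, 478 without the filter, 11 with only the 6 libraries compared, 134 with the replicate block, 59 with library totals alone (chosen after seeing the data) and 0 to 100 with a library left out. In F4MKO + FSTL1 compared with F4MKO the 2070 genes became 1295 to 2216 with a library left out. In F4MKO + FSTL1 compared with Flox the 1 gene became 284 with DESeq2, 2 with DESeq2's size factors in edgeR, 379 without the filter, 0 with only the 6 libraries, 15 with the replicate block, 2 with library totals alone and 0 to 101 with a library left out. The cause was not tested.

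Values near 0 changed sign. The log2 fold change of Psme1 in F4MKO compared with Flox was -0.0010 with DESeq2, -2e-04 without the filter and -0.0010 with the replicate block, and that of Psmb10 was 0.023 with library totals alone. In F4MKO + FSTL1 compared with F4MKO, Psme2 was 0.0068 with DESeq2, and with library totals alone Psmb5 was -0.038 and Psmb7 -0.0089. In F4MKO + FSTL1 compared with Flox, Psmb5 was -0.0071 with upper-quartile factors and -0.055 with library totals alone, where Psmb9 was -0.040. With a library left out, F4MKO compared with Flox ranged from -0.19 to 0.0084 for Psmb10, -0.70 to 0.24 for Psmb8, -0.014 to 0.66 for Psmd10 and -0.11 to 0.10 for Psme1, and Psme2 in F4MKO + FSTL1 compared with F4MKO from -0.12 to 0.082. F4MKO + FSTL1 compared with Flox ranged from -0.11 to 0.52 for Psma8, -0.056 to 0.14 for Psmb5, -0.10 to 0.018 for Psmb7, -0.42 to 0.67 for Psmb9 and -0.42 to 1.09 for Psmg1. The log2 ratio of Psmb8 to Psmb5 ranged from -0.47 to 0.20 in F4MKO compared with Flox and from -0.0068 to 0.59 in F4MKO + FSTL1 compared with Flox. The ratio of Psmb9 to Psmb6 was not run.

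Same-numbered libraries come from different mice. Correlations were taken over the tested genes on deviations of log2 CPM from the group mean, not on the levels themselves. For same-numbered libraries they were 0.08, 0.04 and 0.17 in F4MKO compared with Flox. In F4MKO + FSTL1 compared with F4MKO they were 0.11, 0.09 and 0.30. In these comparisons each sample correlated best with its own number. The correlations were 8e-04, -0.0985 and 0.206 in F4MKO + FSTL1 compared with Flox, where only replicate 3 correlated best with its own number. What same-numbered samples share beyond the number was not tested, and the main fit used no pairing. With the replicate block the adjusted p was under 0.05 for 6 proteasome genes in F4MKO + FSTL1 compared with F4MKO (Psmb9, Psmd9, Psmg3 and, of the core and cap, Psmd12, Psma6 and Psmd8), against 24.1% of all genes. Of the 6, 1 (Psmb9) was called, and 0 were called in F4MKO compared with Flox. With 3 mice per group, ratios cannot reach p under 0.1. Psmb8, Psmb9, Psmd10 and Psmg1 rest on fewer reads than the core and cap genes, and varied within groups more than most genes of like level.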
